A study of Homo sapiens with 4 samples.

Results

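GAPDH and 9 other genes of the glycolytic pathway were followed on 4 arrays that compared RNA of squamous carcinoma cells transfected with a miRNA with RNA of control transfectants. The 10 genes were GAPDH, ENO1, PGK1, PGAM1, LDHA, TPI1, ALDOA, HK2, PFKP and SLC2A1, of 30982 gene names on the array, and every non-control spot carrying one of these names was used. This gave 17 probes of 41000. The set was chosen by the GAPDH log2 ratio, which was above 0 on all 4 arrays, so that ratio is given as a description without a test against 0, and the question was whether the other enzymes rose with it or only single probes did.

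Each array carried Cy5-labelled RNA of miRNA transfectants and Cy3-labelled RNA of the same cell line transfected with a control miRNA, both collected 72 h after transfection. FaDu, an established line derived from a hypopharyngeal squamous cell carcinoma, and HSC3, a squamous cell carcinoma line from tongue, were each transfected with miR-489 or with miR-504, giving 1 array per condition. All 4 arrays lay on 1 slide read in 1 scan and the dyes were not swapped, so that a dye effect of a probe cannot be told apart from its ratio to the control. The labels do not say whether the arrays of a line shared a control RNA, nor which arm of each miRNA precursor was transfected. The study itself used GAPDH as the internal control of PCR in its cell lines.

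The mature miRNAs with these names in RefSeq (GRCh38.p14) are given here to show their seeds, without a statement on which arm was added to the cells. Capitals mark the seed, bases 2 to 8, through which a miRNA pairs with its target mRNAs. 
hsa-miR-489-3p: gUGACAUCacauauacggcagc
hsa-miR-504-5p: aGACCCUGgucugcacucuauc
hsa-miR-504-3p: gGGAGUGCagggcaggguuuc
The 3 sequences have different seeds. MIR489 lies on chromosome 7 and MIR504 on chromosome X, both on the minus strand.

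Glycolysis splits glucose into pyruvate and yields ATP and NADH in the cytosol. Glucose enters through transporters such as SLC2A1 and is trapped by hexokinase, phosphofructokinase commits it to the pathway, aldolase and triosephosphate isomerase produce triose phosphates, and GAPDH, PGK1, PGAM1 and ENO1 carry these on towards pyruvate. LDHA then reduces pyruvate to lactate and regenerates NAD+. Tumour cells often run this route even with oxygen present, and many of its genes are induced by hypoxia-inducible factor. Because GAPDH is abundant in most cells, it is widely used as a reference against which other mRNAs are measured.

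Values for the 4 arrays are listed in 1 order throughout, FaDu with miR-489, FaDu with miR-504, HSC3 with miR-489 and last HSC3 with miR-504. They are log2 ratios of Cy5 over Cy3 after local background subtraction, with the median of each array set to 0, so that a value of 0 means the same ratio as the median probe. All 17 probes were well above background in both channels on all 4 arrays, and 0 were saturated. Tests were made with limma on the 20914 probes whose control signal was well above background on every array, with the cell lines as replicates of a miRNA, and p-values were adjusted by the Benjamini-Hochberg method over all of these probes. Each line stands as 1 sample per miRNA, so these p-values measure the spread between the lines and nothing within them. The comparison of FaDu with HSC3 was fitted with a term per line instead, with the miRNAs as replicates of a line. The p-values of that comparison measure the spread between the miRNAs within a line, so a difference between the miRNAs widens its error. A fall or rise in a ratio does not tell less RNA per cell from fewer cells that hold the RNA. Squamous identity was checked on its markers, and 7 of 7 squamous markers on the array (KRT5, KRT14, KRT17, TP63, SFN, CDH1 and EPCAM) had control signals well above background on all arrays. Of 8 markers of leukocytes, endothelium and fibroblasts, only VIM and ACTA2 did, and 5 were above background on none.

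GAPDH stood well above its control on every array. Its single probe, A_23_P13899, gave log2 ratios of 1.03 and 0.83 in FaDu cells with miR-489 and miR-504, and of 0.92 and 0.86 in HSC3 cells. These correspond to ratios of 2.04, 1.78, 1.89 and 1.81 over the control. The probe was printed as 10 spots per array, and the SD between its spots was 0.03, 0.03, 0.04 and 0.04 on the log2 scale. The SD between spots covers technical error within an array only. The GAPDH ratio was higher in both lines with miR-489 than with miR-504, by 0.13 ± 0.11 (SE) in log2, with a 95% interval from −0.15 to 0.41, and this difference did not pass the test (adjusted p = 0.603). Between FaDu and HSC3 it differed by 0.04 (adjusted p = 1).

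**Figure D1:**
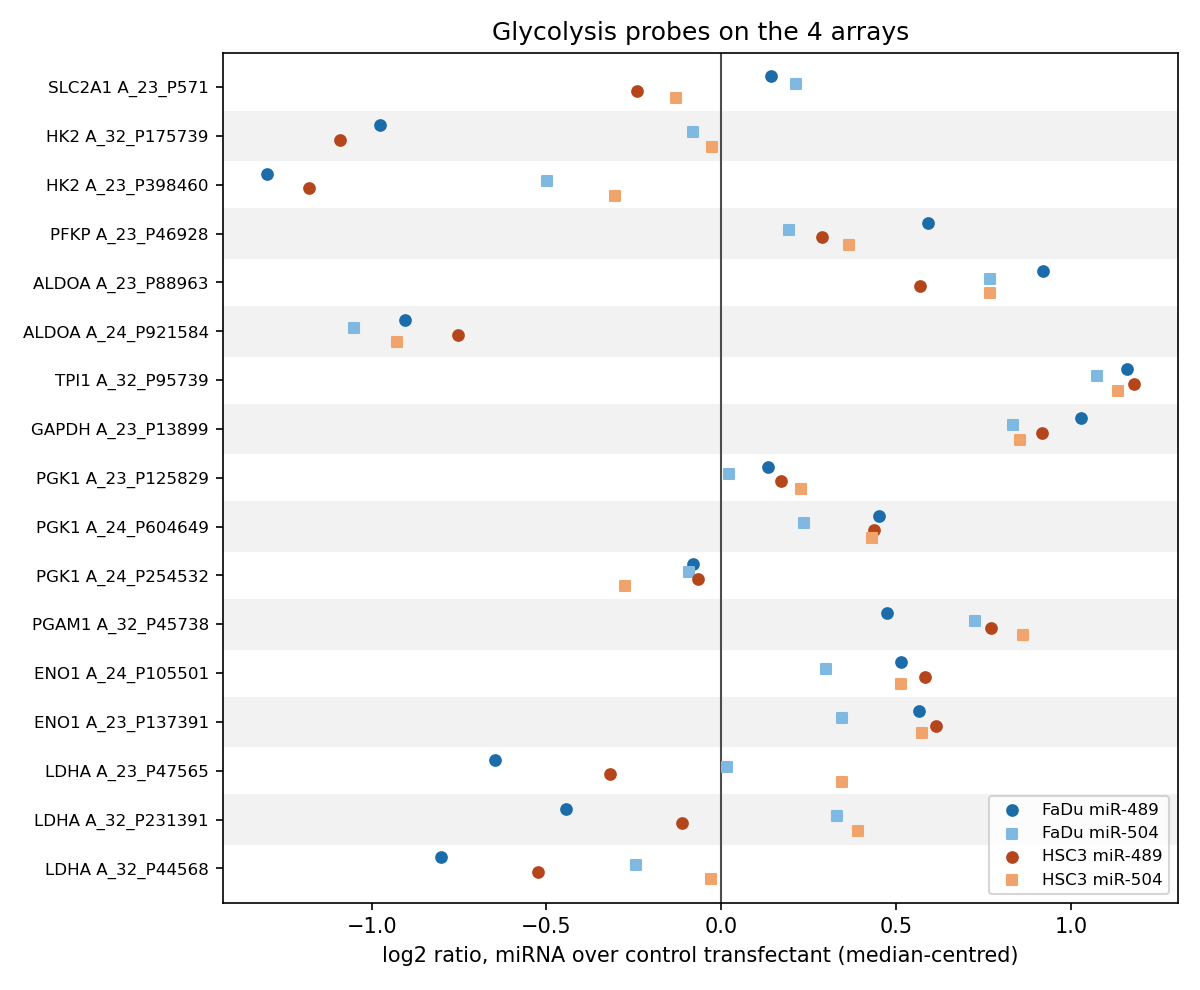
Log2 ratio of miRNA over control transfectants (x axis) for the 17 probes of the 10 glycolysis genes, in pathway order (y axis); each point is 1 array, coloured by cell line and miRNA. TPI1 and GAPDH lie between 0.83 and 1.18 on all arrays, both HK2 probes lie below 0, and the 2 ALDOA probes lie on opposite sides of 0.

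The other enzymes did not move as a block. Of the 16 probes other than GAPDH, 8 (50%) were above 0 on all 4 arrays, 5 were below 0 on all and 3 were mixed. Among all tested probes 35.7% were above 0 and 31.8% below 0 on all 4 arrays. The glycolysis probes were mostly bright, and 11 of the 16 fell in the brightest 10% of tested probes by mean Cy3 signal, where 50.4% were above and 31.3% below 0 on all 4 arrays. In that brightest 10% 7 of the 11 probes (63.6%) were above 0 on all arrays and 2 were below. In the mean of the 4 arrays against 0, 7 of 16 probes passed the test as higher (43.8%) and 4 as lower (25%), against 34.6% and 31.4% of all tested probes. The 7 were probes of PFKP, ALDOA, TPI1, PGK1, PGAM1 and ENO1 (both), and the 4 were both HK2 probes, the other ALDOA probe and 1 LDHA probe. Counted by probe, the calls thus lay near the background shares, with several probes of 1 gene counted separately. The background shares of calls are over all tested probes and are not matched for brightness. By brightest probe, 7 of the 10 genes were above 0 on all 4 arrays and 1 was below. GAPDH, whose ratio chose the set, is among the 7. In the log ratio deposited from the scanner software these were 5 and 3, again with GAPDH. There 33.4% of all tested probes were above 0 on all 4 arrays. A share over all genes by brightest probe is not given.

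SLC2A1, the glucose transporter GLUT1, divided by cell line. Its probe A_23_P571 gave 0.14 and 0.21 in FaDu miR-489 and miR-504 transfectants, and −0.24 and −0.13 in the HSC3 transfectants. Its FaDu values were thus above 0 with either miRNA, its HSC3 values were below 0, and the lines did not overlap. Of all tested probes 1.32% were likewise above 0 on both FaDu arrays and below 0 on both HSC3 arrays. FaDu exceeded HSC3 by 0.36 ± 0.13 (SE), which did not pass after adjustment (limma adjusted p = 1). Over all tested probes 0 passed this comparison between the lines, 0% of 20914, with 667 at an unadjusted p under 0.05. Its error holds the spread between the miRNAs, so it was wide where the miRNAs differed, as for HK2 A_32_P175739 (SE 0.48).

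HK2, the hexokinase that phosphorylates glucose on entry, was the gene of the set with every probe called lower in the mean of the 4 arrays. The brighter probe, A_32_P175739, gave −0.97 with miR-489 and −0.08 with miR-504 in FaDu, and −1.09 and −0.03 in HSC3. The dimmer probe, A_23_P398460, gave −1.30, −0.50, −1.18 and −0.30 in the same order, at control signals of 90.5 to 261.5 units. Both probes were below 0 on all arrays, and both were far lower with miR-489 than with miR-504 in either line. In the mean of the 4 arrays HK2 was lower by the brighter probe (−0.54 ± 0.06 SE, adjusted p = 0.000909) and by the dimmer one (−0.82 ± 0.06, adjusted p = 0.000441). These errors hold the spread between the lines only, so the gap between the miRNAs does not enter them. With miR-504 alone the brighter probe did not pass (−0.05, limma adjusted p = 0.6) and the dimmer one did (−0.40, 0.0174). Without background subtraction the brighter probe was above 0 with miR-504 in both lines (0.05 in FaDu, 0.08 in HSC3).

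PFKP, the platelet-type phosphofructokinase of the committing step, gave 0.59, 0.19, 0.29 and 0.36. All 4 values were above 0, the highest with miR-489 in FaDu, and the mean was 0.36 ± 0.08 (SE, adjusted p = 0.00941). The call was lost after loess (0.15, adjusted p = 0.115), with total signal (0.18, 0.0777), in the deposited ratio (0.17, 0.10) and without the HSC3 array of miR-504 (0.32, 0.0568).

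ALDOA, the aldolase that cleaves fructose bisphosphate into triose phosphates, gave opposite answers from its 2 probes. A_23_P88963 read 0.92, 0.77, 0.57 and 0.77 on the 4 arrays, a mean of 0.76 ± 0.08 (SE, adjusted p = 0.000823). A_24_P921584, which was designed to another transcript record of the gene, read −0.91, −1.05, −0.75 and −0.93, a mean of −0.91 ± 0.06 (adjusted p = 0.00033). The probes differed by 1.32 to 1.83 within an array, far more than the arrays of either probe differed among themselves. No statement on the direction of ALDOA can be made without choosing a probe.

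TPI1, which interconverts the triose phosphates, was the gene most raised. Its probe A_32_P95739 gave 1.16, 1.07, 1.18 and 1.14, a mean of 1.14 ± 0.05 (SE, adjusted p = 0.000213), or a ratio of 2.20 over the control. The 4 arrays lay within a narrow range and above those of GAPDH on each array.

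PGK1, the phosphoglycerate kinase that forms ATP after the GAPDH step, was split over 3 probes. The brightest, A_23_P125829, was printed as 10 spots and gave 0.13, 0.02, 0.17 and 0.23, with spot SDs of 0.02 to 0.03. Its mean was 0.14 ± 0.06 (SE, adjusted p = 0.0993, and 0.0472 with the cell line as a random block). The correlation estimated for that block was −0.417, a negative value that makes the error of a mean smaller. A_24_P604649 gave 0.45, 0.24, 0.44 and 0.43, and its mean of 0.39 ± 0.06 passed the test (adjusted p = 0.00341). The dimmest, A_24_P254532, gave −0.08, −0.09, −0.07 and −0.27, a mean of −0.13 ± 0.06 that did not pass (adjusted p = 0.112) but did after loess (−0.22, adjusted p = 0.0288). Median centring thus called 1 of 3 probes higher.

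PGAM1, the phosphoglycerate mutase of the next step, gave 0.47, 0.73, 0.77 and 0.86 on the 4 arrays and a mean of 0.71 ± 0.07 (SE, adjusted p = 0.000893). All arrays were above 0, FaDu with miR-489 being the lowest. ENO1, the enolase that forms phosphoenolpyruvate, was measured by 2 probes that ran together. A_24_P105501 gave 0.51, 0.30, 0.58 and 0.51 (mean 0.48 ± 0.06, adjusted p = 0.00194), and A_23_P137391 gave 0.57, 0.35, 0.62 and 0.57 (mean 0.53 ± 0.06, adjusted p = 0.0015). Both were lowest in FaDu with miR-504, and in the deposited ratio neither passed (0.13, adjusted p = 0.107, and 0.14, adjusted p = 0.0744).

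LDHA, the lactate dehydrogenase subunit at the end of the pathway, gave values that divided by miRNA. A_23_P47565 read −0.65, 0.02, −0.32 and 0.34 on the 4 arrays. A_32_P231391 gave −0.45, 0.33, −0.11 and 0.39, and A_32_P44568 gave −0.80, −0.24, −0.53 and −0.03. In all 3 probes both miR-489 values were lower than both miR-504 values, as they were in both HK2 probes. These were 5 of the 17 probes, against 22.4% of all tested probes. Only A_32_P44568 passed the test on the mean of the 4 arrays, as lower (−0.40, adjusted p = 0.00656), and A_23_P47565 passed as lower after loess (−0.43, adjusted p = 0.00477).

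Brightness moved with these values. By brightest probe the median log2 ratio of the 10 genes was 0.49, 0.26, 0.43 and 0.44 on the 4 arrays, and without GAPDH it was 0.47, 0.21, 0.29 and 0.36. Over 15724 genes the median was 0.02 on each array, and over the brightest 1572 genes it was 0.14, 0.08, 0.13 and 0.12. GAPDH stood at the 93.6th to the 95.9th percentile of these brightest genes, high among them but within their range. Of the 10 genes 8, all but SLC2A1 and HK2, were among the brightest 1572. Brightness is here a property of the spot and does not rank RNA levels between genes.

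**Figure D2:**
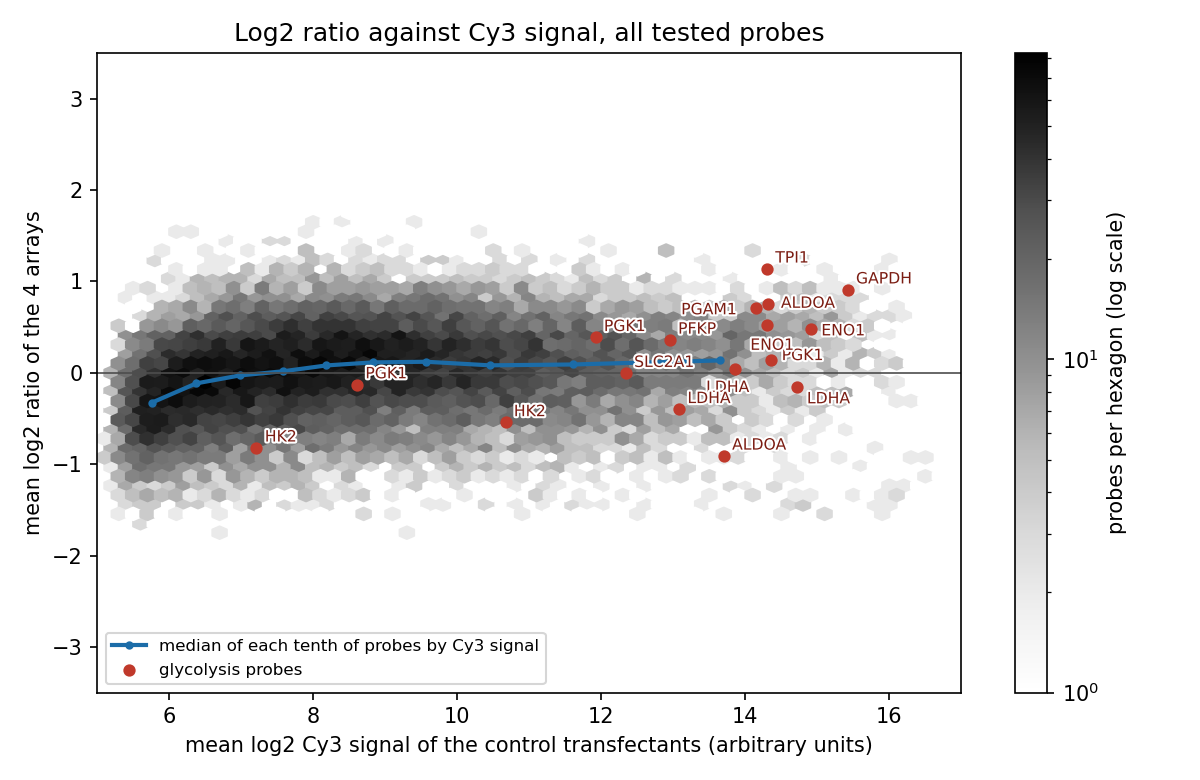
Mean log2 ratio of the 4 arrays (y axis) against the mean log2 Cy3 signal of the control transfectants (x axis) for 20914 probes; grey hexagons count all probes on a log scale, the blue line joins the medians of 10 equal bins by signal and red points are the 17 glycolysis probes. The median of the bins climbs from below 0 at low signal to above 0, and most glycolysis probes lie at the bright end on either side of it.

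The brightest spots were also read differently by the scanner. Where a spot was too bright at high gain, the software took its signal from a low-gain reading and scaled it up. The Cy5 signal came from the low-gain reading on all 4 arrays for GAPDH, TPI1, PGAM1, both ENO1 probes and ALDOA A_23_P88963, and the Cy3 signal also did so on all 4 arrays for GAPDH and ENO1 A_24_P105501 only. For SLC2A1, HK2, ALDOA A_24_P921584 and the 2 dimmer PGK1 probes neither channel used it on any array. In the brightest 10% of tested probes the median of the mean log2 ratio was 0.24 for the 484 probes with low gain in both channels on all arrays, 0.49 for the 191 with low gain in Cy5 alone on all arrays and −0.13 for the 727 with none. For the other 689, whose readings were mixed, it was also 0.24. TPI1, with low gain in Cy5 on 4 arrays and in Cy3 on 3, was among these. A spot reaches the low-gain reading in Cy5 more readily when its Cy5 signal is high, so these classes are not independent of the ratio. The part of the reading in the GAPDH and TPI1 values was not tested.

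Total signal, loess and the deposited ratio each moved the brightest probe of all 10 genes down, whereas normexp and the omission of background subtraction moved all 10 up. The mean GAPDH log2 ratio was 0.91 with median centring, 0.58 after loess, which fits the ratio as a curve of brightness, 0.73 with the total signals of both channels set equal and 0.48 in the log ratio deposited from the scanner software. TPI1 was 1.14, 0.85, 0.95 and 0.82 in the same order. GAPDH and TPI1 were above 0 on all 4 arrays under each of the 8 ways of processing plotted, and PGK1 A_23_P125829 was not, with means of −0.13 after loess and −0.15 in the deposited ratio. In the deposited ratio 7 of the 17 probes, GAPDH included, were above 0 on all arrays and 7 below, where 33.4% of all tested probes were above.

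**Figure D3:**
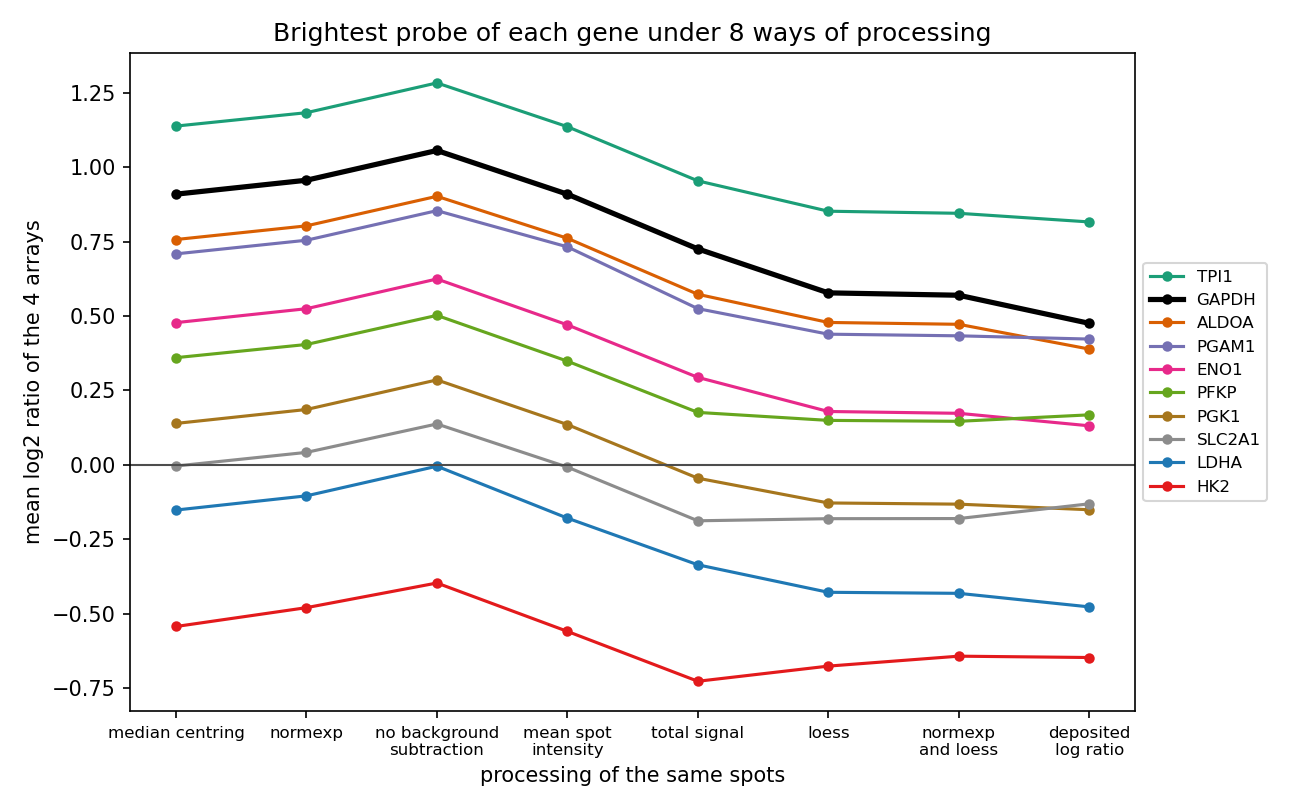
Mean log2 ratio of the 4 arrays (y axis) for the brightest probe of each gene under 8 ways of processing the same spots (x axis); lines join the values of a gene and carry no error. TPI1 stays on top and HK2 at the bottom throughout, GAPDH lies between 0.48 and 1.06, and PGK1 and SLC2A1 cross 0.

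The miRNAs were then compared with each other, a difference in which a dye effect shared by the arrays cancels. With miR-489 7 of 16 probes passed against 0 as higher and 5 as lower, against 30.5% and 26.6% of all tested probes. With miR-504 7 passed as higher and 2 as lower, against 26.2% and 23.4%. The 7 became 2 without the FaDu array of miR-504 and 3 without the HSC3 array of miR-504. In the direct difference 1 of 17 probes was lower with miR-489 and 0 were higher, against 0.784% and 0.316% of all tested probes. At an unadjusted p under 0.05 it was 5 of 17 lower, against 9.34% of all, and 0 higher. These 5 were the HK2 and LDHA probes.

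For HK2 the difference between miR-489 and miR-504 was −0.89 in FaDu and −1.06 in HSC3 by A_32_P175739. Its mean of −0.98 ± 0.11 (SE), a ratio of 0.51, passed the test (limma adjusted p = 0.0395). Leaving out any 1 array kept its size (−1.04 to −0.92) and ended the call (adjusted p = 0.101 to 0.273), and so did testing all probes without the filter on dim ones (adjusted p = 0.578). By A_23_P398460 the difference was −0.80 in FaDu and −0.88 in HSC3, a mean of −0.84 ± 0.13 that narrowly missed (adjusted p = 0.0622) and passed with the cell line as a block (adjusted p = 0.0384). HK2 was therefore lower after miR-489 than after miR-504 in both lines by both probes.

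For LDHA the difference was −0.66 in FaDu and −0.66 in HSC3 by A_23_P47565, −0.78 and −0.50 by A_32_P231391, and −0.56 and −0.50 by A_32_P44568. The 3 means were −0.66 ± 0.18, −0.64 ± 0.15 and −0.53 ± 0.15 (SE), with ratios of 0.63, 0.64 and 0.69, and none passed after adjustment (limma adjusted p = 0.161, 0.127 and 0.177). The first pair passed after normexp and loess (adjusted p = 0.041 and 0.0385). Their 95% intervals reached from −1.12 to −0.21, from −1.02 to −0.26 and from −0.91 to −0.14. The probes of LDHA are 3 readings of the same RNA and not independent samples.

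The remaining members gave differences between −0.17 (PGAM1) and 0.16 (PFKP and ALDOA A_24_P921584), none of which passed. The interval for TPI1 ran from −0.21 to 0.34, that for ENO1 A_24_P105501 from −0.18 to 0.46 and that for PGAM1 from −0.54 to 0.20, which are the differences that the arrays leave possible.

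**Figure D4:**
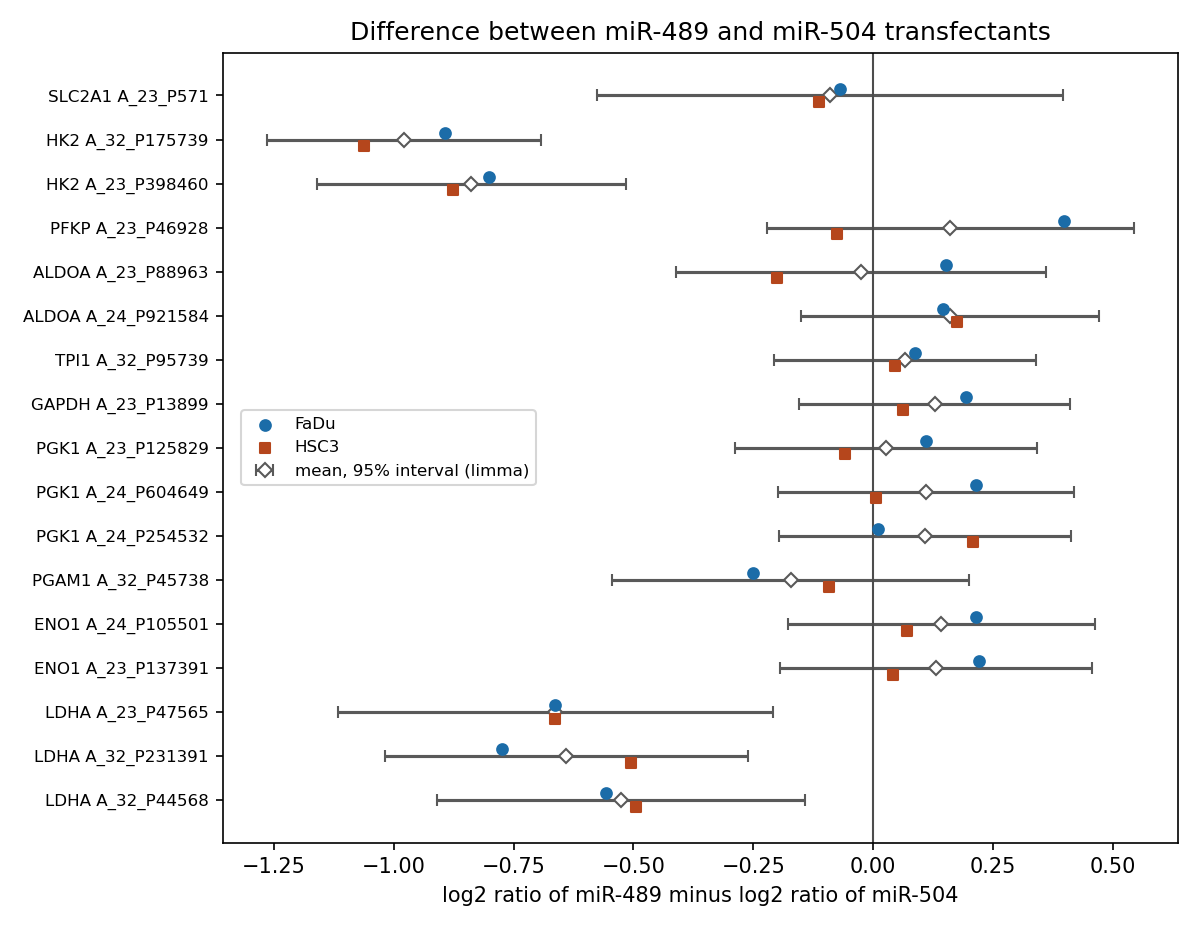
Difference in log2 ratio between miR-489 and miR-504 transfectants (x axis) for the 17 probes (y axis); circles are FaDu, squares HSC3, diamonds the mean with its 95% interval from limma. Both HK2 and all 3 LDHA probes lie below 0 in both lines, and the intervals of the other 12 probes include 0.

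The control channel gave the level of each gene in the lines without either miRNA. Each array's Cy3 signals were set to a common median, and a line was read on 2 arrays. This comparison was chosen after the values were seen, has no test because the readings of a line may be of 1 RNA, and holds within a probe only. Over all tested probes the readings of a line differed by a median of 0.15 in FaDu and 0.20 in HSC3 on the log2 scale, and the lines differed by 0.48. HSC3 was at least 2-fold above FaDu for 9.69% of probes and at least 2-fold below for 11.4%.

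HK2, PGK1 and LDHA were higher in HSC3 control cells. The HK2 probes stood 2.41 and 2.12 times higher in HSC3, the PGK1 probes 2.25, 2.42 and 2.75 times higher, and LDHA 2.17 (A_23_P47565), 1.20 (A_32_P231391) and 2.03 times (A_32_P44568). PFKP stood 1.83 times higher. For GAPDH the readings were 7.14 and 7.10 in FaDu and 6.80 and 6.57 in HSC3 on the centred log2 scale, so HSC3 was at 0.74 of the FaDu level. TPI1 was at 0.67, and SLC2A1 at 0.92 with overlapping readings. ALDOA again divided by probe, at 0.57 by A_23_P88963 and 1.27 by A_24_P921584.

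**Figure D5:**
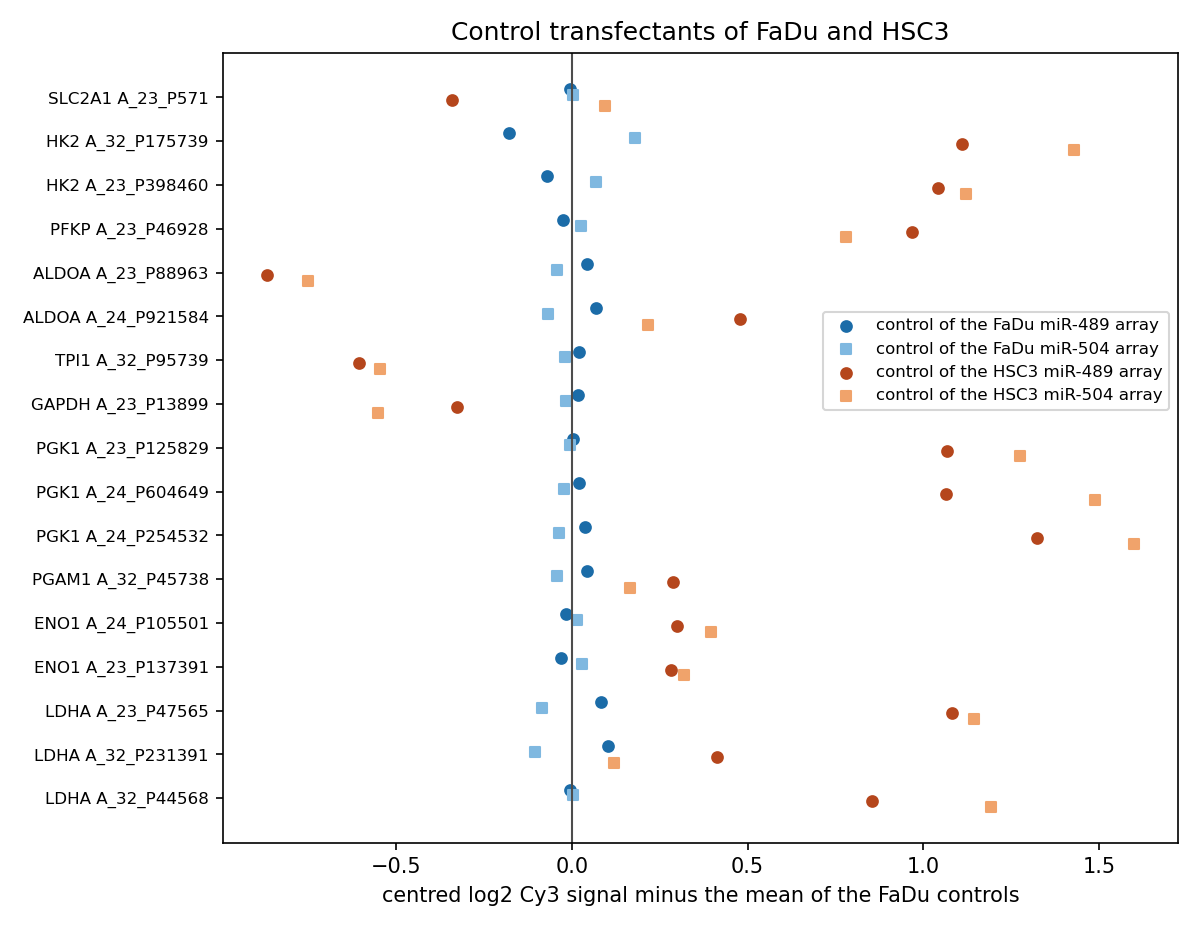
Centred log2 Cy3 signal of control transfectants, as the difference from the mean of the FaDu controls (x axis), for the 17 probes (y axis); each point is the control channel of 1 array. The HSC3 readings of HK2, PGK1 and 2 LDHA probes lie about 1 or more above FaDu, and those of GAPDH, TPI1 and ALDOA A_23_P88963 lie below.

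The wider pathway also held genes called in either direction. Of 29 further genes of glycolysis and its regulation, 28 were on the array and 20 were tested by their brightest probe. In the mean of the 4 arrays 11 were higher and 4 lower, where 34.6% of all tested probes were higher and 31.4% lower, with a median of 0.24 against 0.02 over all tested probes. The values over all tested probes are not matched to these genes for brightness. Among the smallest adjusted p-values, given after the mean log2 ratio, were those of HK1, the widespread hexokinase (0.69, adjusted p = 0.000585), of PFKM, the muscle phosphofructokinase (0.61, 0.000622) and of MPI, which links mannose to the pathway (0.45, 0.00147). With median centring HK1 and HK2 thus moved in opposite directions, while PFKM and PFKP both rose. None of the 20 passed the difference between the miRNAs. Adjusted p-values were among the smallest for ENO3, the muscle enolase (−0.67, adjusted p = 0.102), SLC16A3, a lactate exporter (−0.63, 0.144), and TIGAR (−0.38, 0.178).

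Among 18 genes of the hypoxia response, 16 were tested, 7 were higher and 4 lower, near the 34.6% and 31.4% of all tested probes, with a median of 0.17. KDM3A, a histone demethylase induced by hypoxia, stood at 0.96 (adjusted p = 0.000556), VEGFA, the angiogenic growth factor, at 0.87 (0.00063), ANKRD37 at −1.03 (0.00103) and HIF1A, the oxygen-regulated subunit of the factor, at 0.40 (0.00206). In the difference between the miRNAs 2 genes passed, both as higher with miR-489, against 0.316% of all tested probes. EPAS1, which encodes another oxygen-regulated subunit, was at 0.27 with miR-489 and −0.81 with miR-504 (difference 1.08, adjusted p = 0.0348). ARNT, the partner subunit, was at 0.13 and −0.75 (difference 0.88, adjusted p = 0.0479). Both calls lay close to the threshold of 0.05 and rest on the brightest of 2 probes. They were not examined under the other ways of processing or with an array left out.

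Of 12 genes of the pentose phosphate route and gluconeogenesis, 8 were tested, 2 were higher and 2 lower, with a median of −0.09, where 34.6% of all tested probes were higher and 31.4% lower. TKT, the transketolase that returns pentoses to glycolysis, was at 0.89 (adjusted p = 0.000326) and PGLS, the lactonase, at 0.48 (0.0011). RPIA, the ribose phosphate isomerase, was at −0.52 (0.00149). None of the 8 passed the difference between the miRNAs.

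Of 13 other genes used as PCR references, all were tested, 5 were higher and 3 lower, near the background shares of 34.6% and 31.4%, with a median of 0.10. The smallest adjusted p-values were those of RPLP0, a ribosomal protein (1.19, adjusted p = 0.000213), ACTB, the cytoplasmic actin (0.97, 0.000354), RPL13A, another ribosomal protein (0.68, 0.000459), and GUSB, the lysosomal glucuronidase (−0.78, 0.000486). Against RPLP0 and ACTB, the GAPDH mean of 0.91 was of similar size. None of the 13 passed the difference between miR-489 and miR-504.

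The genes most like GAPDH over the 4 arrays were found by the Euclidean distance between their log2 ratios, over 15723 other gene names by brightest probe, as a description without a test. The nearest were LOC286016 (0.06), which RefSeq now lists as the triosephosphate isomerase pseudogene TPI1P2, NOLA2 (0.07), RPL18 (0.07), C6orf70 (0.08) and PGM1 (0.08), a phosphoglucomutase. Of the other glycolysis genes ALDOA ranked 488th by its brightest probe, TPI1 725th and PGAM1 1084th, while LDHA ranked 10557th and HK2 13705th. LOC286016 can share sequence with TPI1, so its probe and that of TPI1 may read the same RNA.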

How the data were processed

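The 10 genes, the gene lists and the comparisons were chosen with earlier results of these data known. The authors deposited scanner output of Feature Extraction 9.5.3.1 holding, per spot, median and mean intensities with the local background, marks for signal above background, outliers, saturation and low-gain reading, and a log10 ratio that the software made after its own dye normalisation. A deposited table of log10 values was identical to these ratios (largest difference 0 over 180060 values). The study's methods name another scanner and software, then log2 ratios from medians less background, normalised globally, and the latter steps were followed here.

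Subtracted signals were floored at the lowest signal well above background, and log2 ratios were centred on the median of spots above background in both channels, which removed 0.58, 0.65, 0.58 and 0.45 from the arrays in the order used above. Outlier spots (118 to 137 per array) were dropped and spots of a probe averaged. The number of arrays limits the precision. limma was fitted to 20914 probes with a term per miRNA, leaving 2 residual degrees of freedom with a prior of 3.21, and with a term per line for the comparison of lines. The script was tested on simulated data. Alternatives were normexp (offset 50), no background subtraction, mean spot intensity, loess (span 0.3), both, total signal, the deposited ratios and table, other filters, blocks and leaving out each array.

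Named genes were every probe of the 10 genes and, per list, up to 4 with the smallest adjusted p in the mean of the arrays and up to 4 in the difference between miRNAs, of which some are not reported here. Names follow the array's design, where JMJD1A stands for KDM3A, VEGF for VEGFA and C12orf5 for TIGAR. All 10 symbols and 16 of 17 probe accessions matched RefSeq (GRCh38.p14). The exception was ALDOA A_23_P88963, the ALDOA probe called higher. The build of the files' coordinates is not given in the sources used here, so none are printed. Figures were drawn with matplotlib 3.10.9 and pandas 2.3.3 in Python 3.11.15, and limma 3.58.1 ran in R 4.3.3.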

Additional observations from a re-analysis of the deposited data

Results flagged for a closer look

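SLC2A1 stood out because its ratio had opposite signs in the lines, above 0 on both FaDu arrays and below 0 on both HSC3 arrays. The difference of FaDu minus HSC3 was 0.36 (log2) and did not pass limma after adjustment over all tested probes (adjusted p = 1). Under loess and in the deposited ratio, both arrays of HSC3 stayed below 0 and 1 of the 2 FaDu arrays was above 0.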

How the results depend on the processing

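Under each array-level alternative the median log2 ratio of the 10 genes stayed above 0. This median includes GAPDH, whose ratio chose the set, so it is a description and does not show a rise of the other genes. In the array order used above it was 0.65, 0.42, 0.58 and 0.56 without background subtraction, 0.18, 0.071, 0.16 and 0.17 after loess, 0.17, 0.070, 0.15 and 0.16 after normexp and loess, 0.29, 0.086, 0.25 and 0.25 with total signal, and 0.17, 0.11, 0.14 and 0.13 in the deposited ratio. With normexp it was 0.56 and 0.32 on the FaDu arrays, and the mean of all probes of a gene gave 0.32 in FaDu with miR-489 and 0.23 and 0.30 in HSC3.

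In the mean of the 4 arrays the deposited ratio and the deposited table called 4 probes higher and 8 lower, and normexp with loess 8 lower. The shares of all tested probes called are given only for median centring with all 4 arrays and the filter. The counts in this paragraph therefore describe the settings and are not results about the genes. The total signal moved the median of all probes by −0.16. Against 0 with miR-504, 3 probes were higher after loess, after normexp and loess and in the deposited ratio, and 4 with total signal. There 4 were lower after normexp and loess and 1 without the filter on dim probes. With miR-489 the deposited ratio called 4 higher. In the difference between the miRNAs the number lower was 3 after normexp and loess (the LDHA probes A_23_P47565 and A_32_P231391 and HK2 A_32_P175739), 2 with the cell line as a replicate block, the pairing by line, and 0 without the filter. Leaving out any 1 array gave 0, and left 1 line as the only sample of a miRNA. It gave 2 to 7 higher and 1 to 2 lower with miR-504.

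Values near 0 changed sign. The mean of SLC2A1 was 0.042 with normexp and 0.14 without background subtraction, and −0.10 to 0.092 with an array left out. For PGK1 A_23_P125829 it was −0.13 after loess, −0.13 after normexp and loess, −0.045 with total signal and −0.15 in the deposited ratio and table. For LDHA A_32_P231391 these were −0.20, −0.20, −0.14 and −0.21, and −0.042 to 0.12 with an array left out. The miRNA difference of PGK1 A_23_P125829 was −0.013 after loess, −0.017 after normexp and loess and −0.0055 in the deposited ratio, and −0.077 to 0.13 with an array left out. That of SLC2A1 was then −0.28 to 0.10 and that of ALDOA A_23_P88963 −0.20 to 0.15. The causes were not tested. With 4 arrays and no dye swap, a dye effect of a probe cannot be told apart from its ratio to the control.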
